A study of Mus musculus with 6 samples.

Results

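The mRNAs of 33 enzymes of glycolysis and the citric acid cycle were compared between 2 ways of extracting RNA from the brain of wild-type mice. The members were taken by gene symbol, 1 row per Ensembl gene, and all 33 were found among the 22584 genes of the count table. Of these, 16 belong to glycolysis, counting 2 lactate dehydrogenase genes, and 17 bring pyruvate into the citric acid cycle or were listed with the cycle. The latter include Mdh1, the cytosolic malate dehydrogenase. RNA in the 3 control libraries had been extracted with TRIzol, a phenol and guanidine reagent, and RNA in the other 3 libraries with the AllPrep kit, a column kit that yields DNA, RNA and protein from one lysate. All 6 libraries were of WT genotype, were made by amplification with T7 RNA polymerase, and had no treatment or age in the labels. Nothing in the labels tells whether each library came from its own animal or dissection, so a p-value weighs a difference only against the variation among these 6 libraries, and that variation may be purely technical.

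Glycolysis splits glucose into pyruvate in the cytosol, yielding some ATP and NADH, and lactate dehydrogenase interconverts pyruvate and lactate. Pyruvate that enters the mitochondrion is turned into acetyl-CoA by the pyruvate dehydrogenase complex or into oxaloacetate by pyruvate carboxylase, and the citric acid cycle oxidizes acetyl-CoA and feeds electrons to the respiratory chain. Brain tissue relies mainly on glucose as its fuel, and several steps are shared out between isozymes that differ between neurons and glia. The enzymes are housekeeping genes in the broad sense, and Gapdh in particular is a common reference gene.

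Total counts per library ran from 36395330 to 50937858, and Hk2 had the fewest counts of the members. Levels are given as CPM, each gene's counts divided by the library total and multiplied by 1000000. A log2 fold change is AllPrep relative to TRIzol, fitted by edgeR after TMM scaling of library sizes over all genes, and negative values mean a lower level with AllPrep. A gene passed when its p from edgeR's quasi-likelihood F-test, adjusted by the Benjamini-Hochberg method over 16325 tested genes, was below 0.05. Marker sums of some cell types differed between the methods, while those of others overlapped. All 7 choroid plexus markers rose with AllPrep, from a summed 17.6 to 25.8 CPM to a summed 612 to 1232 CPM. All 8 oligodendrocyte markers were lower in every AllPrep library than in any TRIzol library, although none passed the test, with sums of 6134 to 7198 CPM against 3259 to 5729 CPM. AllPrep library 3 held the lowest of these sums. Neuron markers summed to 7783 to 8705 CPM with TRIzol and to 6758 to 7588 CPM with AllPrep, and 0 of 9 passed. Snap25 made up most of the difference between these sums. It stood at 3212 ± 349 CPM with TRIzol and 2397 ± 287 CPM with AllPrep (SD, n = 3 each). In CPM, 5 of the 9 neuron markers overlapped between the methods, and Rbfox3 and Gad1 had positive log2 fold changes. Astrocyte markers summed to 3430 to 4007 CPM with TRIzol and to 4210 to 4569 CPM with AllPrep, and 1 of 8, Slc1a3, rose. Slc1a2 made up most of the difference between these sums, at 2389 ± 209.6 CPM with TRIzol and 3046 ± 177 CPM with AllPrep (SD, n = 3 each), while the list held 4 positive and 4 negative log2 fold changes with a median of 0.01, and Aldh1l1 and S100b were lower in every AllPrep library. Microglia markers summed to 203 to 210 CPM with TRIzol and to 221 to 231 CPM with AllPrep, and 0 of 6 passed. Of these, Cx3cr1 and Csf1r were higher in every AllPrep library, while the other 4 overlapped. Endothelial markers summed to 168 to 220 CPM with TRIzol and to 193 to 228 CPM with AllPrep, and 0 of 5 passed. Red cell markers summed to 9.14 to 17.8 CPM with TRIzol and to 8.91 to 13.2 CPM with AllPrep, most of it Hba-a1 at 5.85 to 13.2 CPM. Skeletal muscle markers summed to 7.79 to 9.37 CPM with TRIzol and to 6.62 to 7.89 CPM with AllPrep, most of it Acta1 at 5.46 to 7.36 CPM, while Ckm stayed at or below 0.0667 CPM. The part of these marker differences in the results on the enzymes was not tested, and in bulk tissue fewer cells of a type and less RNA per cell cannot be told apart.

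None of the 33 enzymes passed the test between the methods, while 3.80% of all tested genes did. With library size alone as the scaling, 1 member, Pfkp, passed at an edgeR adjusted p of 0.049, against 3.97% of all genes. At an unadjusted edgeR p below 0.05 there were 13 members, of which 12 were lower with AllPrep and 1, Ogdh, was higher. The same rule took 12.4% of all genes as lower and 13.4% as higher. Most of the enzyme mRNAs were somewhat lower with AllPrep. The log2 fold change was negative for 24 of 33 members, against 51.5% of all genes, and its median was -0.13, against -0.01 over all genes. Single values ran from -0.35 for Mdh1 to 0.24 for Hk2. In 31 of 33 members the 95% interval of the difference from limma-voom lay within 1.5-fold in either direction. The exceptions were Ldhb, whose interval ran from 0.655 to 0.973 times the TRIzol level, and the scarce Hk2, whose interval ran from 0.832 to 1.65 times.

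**Figure D1:**
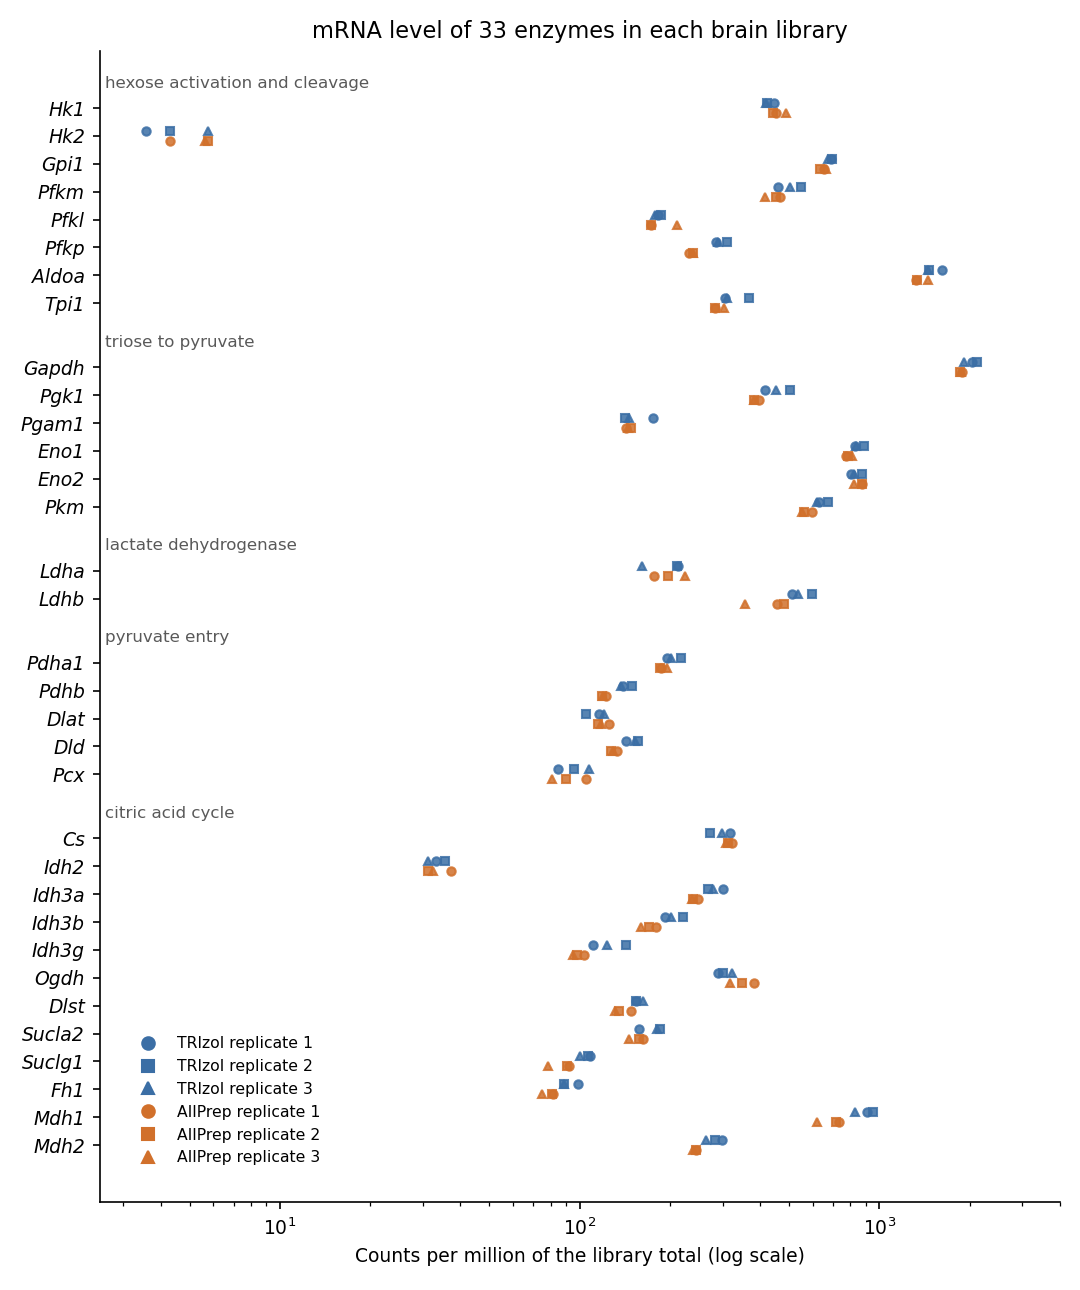
Level of each enzyme mRNA (rows, grouped by step) in each library, in CPM on a log axis; blue marks are the 3 TRIzol libraries and orange marks the 3 AllPrep libraries. Levels run from a few CPM for Hk2 to about 2000 for Gapdh, and the orange marks lie slightly left of the blue ones in most rows.

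Library by library, CPM in all 3 AllPrep libraries was below that in all 3 TRIzol libraries for 19 of 33 members and above it for none. Over all genes, 20.6% were lower and 13.4% were higher without overlap. Part of this asymmetry depended on the scaling. With TMM-scaled CPM, 14 members were lower and 2 members, Hk1 and Ogdh, were higher without overlap, against 17.1% and 16.0% of all genes. On that scale 10 of the 14 lower members lay on the citric acid cycle side and 4 in glycolysis. TRIzol library 2 held the highest CPM of 16 members, and AllPrep library 3 held the lowest CPM of 13 members. The shares over all genes were not determined, so these counts may not be particular to the members.

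The first steps of glycolysis trap glucose in the cell and cut it into trioses. Hexokinase phosphorylates glucose, and Hk1 is its main brain isozyme. Hk1 stood at 445, 422 and 419.8 CPM in TRIzol libraries 1 to 3 and at 451, 442 and 487 CPM in AllPrep libraries 1 to 3. On this scale the groups overlapped, while with TMM-scaled CPM Hk1 was higher in every AllPrep library. The log2 fold change was 0.14 (SE 0.08, edgeR adjusted p = 0.30). Hk2, the isozyme typical of muscle and fat, was scarce here. Hk2 stood at 3.57, 4.31 and 5.76 CPM in TRIzol libraries 1 to 3 and at 4.30, 5.76 and 5.63 CPM in AllPrep libraries 1 to 3. Both groups covered much the same range, and the SE of the difference was the largest among the members, with a log2 fold change of 0.24 (SE 0.21, edgeR adjusted p = 0.52). Gpi1, which turns glucose 6-phosphate into fructose 6-phosphate, had a log2 fold change of -0.04.

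Phosphofructokinase catalyses the committed step, and its 3 subunit genes had log2 fold changes of both signs. Pfkp, the platelet-type subunit, had the smallest p of all 33 members. Pfkp stood at 286, 311 and 289.9 CPM in TRIzol libraries 1 to 3 and at 232, 239 and 239 CPM in AllPrep libraries 1 to 3. All 3 AllPrep values lay within a few CPM of each other and below every TRIzol value. Its means were 296 ± 13.3 CPM with TRIzol and 237 ± 3.94 CPM with AllPrep (SD, n = 3 each), and the log2 fold change was -0.28 (SE 0.07, edgeR adjusted p = 0.062). Pfkl encodes the liver-type subunit. Pfkl stood at 182, 186 and 179 CPM in TRIzol libraries 1 to 3 and at 173, 174 and 211 CPM in AllPrep libraries 1 to 3. The groups overlapped through AllPrep library 3, which was the highest of all 6, and the log2 fold change was 0.06 (SE 0.10, edgeR adjusted p = 0.72). Pfkm, the muscle-type subunit, had 504 ± 45.1 CPM with TRIzol and 444 ± 26.2 CPM with AllPrep (SD, n = 3 each), with overlapping groups and a log2 fold change of -0.15.

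Aldolase cleaves fructose 1,6-bisphosphate, and Aldoa was the member with the most counts after Gapdh. Aldoa stood at 1620.1, 1464 and 1451 CPM in TRIzol libraries 1 to 3 and at 1323, 1340.5 and 1459 CPM in AllPrep libraries 1 to 3. AllPrep libraries 1 and 2 were below all TRIzol libraries, AllPrep library 3 was among them, and the log2 fold change was -0.10 (SE 0.09, edgeR adjusted p = 0.51). Tpi1, which interconverts the 2 trioses, had a log2 fold change of -0.14. Together the 8 genes from hexokinase to triose phosphate isomerase had 5 negative and 3 positive log2 fold changes and a median of -0.07.

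From the trioses to pyruvate, 5 of 6 genes had negative log2 fold changes, again with a median of -0.07. Gapdh oxidizes glyceraldehyde 3-phosphate and had the highest counts of all members. Gapdh stood at 2045, 2123 and 1911 CPM in TRIzol libraries 1 to 3 and at 1893, 1857 and 1879 CPM in AllPrep libraries 1 to 3. Every AllPrep value was below every TRIzol value, by a small margin, and the means were 2026 ± 107 CPM with TRIzol and 1876 ± 18.2 CPM with AllPrep (SD, n = 3 each). After TMM scaling the groups overlapped, and the log2 fold change was -0.08 (SE 0.08, edgeR adjusted p = 0.58). The kinases that follow make ATP. For Pgk1, phosphoglycerate kinase, the means were 457 ± 44.2 CPM with TRIzol and 388 ± 8.71 CPM with AllPrep (SD, n = 3 each), without overlap, and the log2 fold change was -0.20 (SE 0.08, edgeR adjusted p = 0.19). For Pkm, pyruvate kinase, the log2 fold change was -0.13, and for Pgam1, the mutase between them, it was -0.05. The sign for Pgam1 turned when TRIzol library 1 was left out, to 0.06.

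Enolase makes phosphoenolpyruvate. Eno2 is known as the enolase of neurons and Eno1 as the form of glia and most other tissues. Eno1 stood at 829, 889 and 838 CPM in TRIzol libraries 1 to 3 and at 774, 784 and 811 CPM in AllPrep libraries 1 to 3. Eno2 stood at 808, 874 and 821 CPM in TRIzol libraries 1 to 3 and at 876, 873 and 821 CPM in AllPrep libraries 1 to 3. On this scale Eno1 was lower in every AllPrep library than in any TRIzol library and the Eno2 values of the 2 methods overlapped, while with TMM-scaled CPM both genes overlapped between the methods. The log2 fold changes were -0.07 (SE 0.07, edgeR adjusted p = 0.56) for Eno1 and 0.07 (SE 0.07, edgeR adjusted p = 0.56) for Eno2, and neither passed.

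Lactate dehydrogenase is a tetramer of the products of Ldha, which predominates in skeletal muscle, and Ldhb, which predominates in heart and neurons. Ldha stood at 212, 212 and 161 CPM in TRIzol libraries 1 to 3 and at 177, 198 and 225 CPM in AllPrep libraries 1 to 3. Ldhb stood at 513, 598 and 536 CPM in TRIzol libraries 1 to 3 and at 454, 479 and 356 CPM in AllPrep libraries 1 to 3. Ldha overlapped between the methods, while Ldhb was lower in every AllPrep library and lowest in AllPrep library 3. The log2 fold change was 0.07 (SE 0.14, edgeR adjusted p = 0.79) for Ldha and -0.32 (SE 0.12, edgeR adjusted p = 0.16) for Ldhb, with SEs that were among the largest of the abundant members. For Ldha the sign turned when TRIzol library 3 or AllPrep library 3 was left out, to -0.05 and -0.03.

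**Figure D2:**
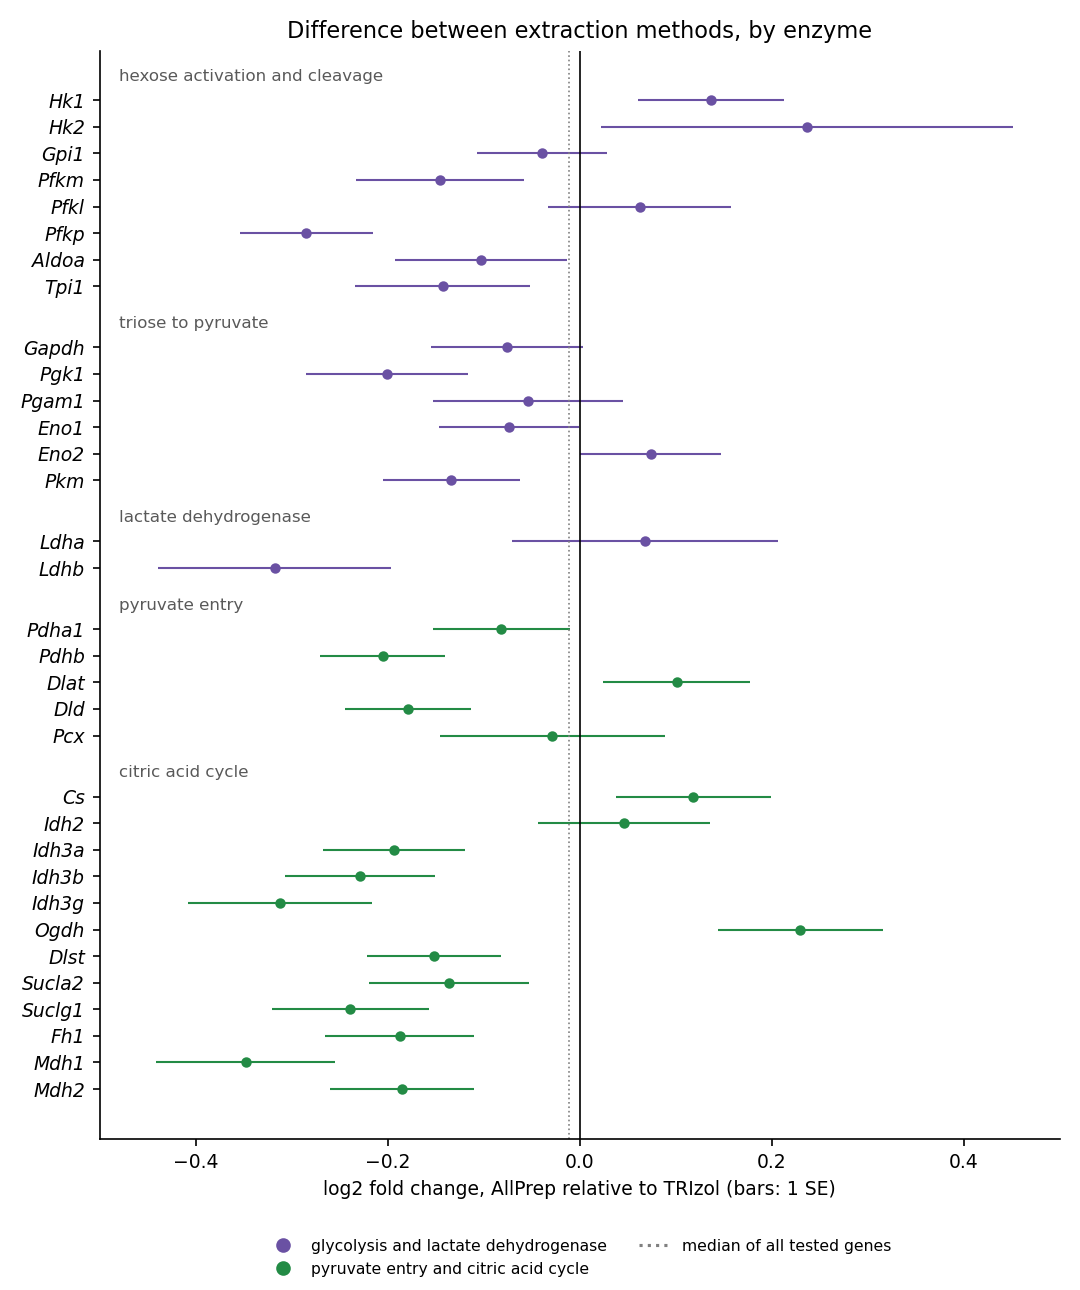
Log2 fold change of each enzyme mRNA, AllPrep relative to TRIzol (points, with bars of 1 SE from edgeR), purple for glycolysis with lactate dehydrogenase and green for pyruvate entry and the citric acid cycle; the dotted line is the median of all tested genes. Points lie left of 0 for 11 of 16 purple and 13 of 17 green members, and none passed the adjusted test.

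At the entry to the cycle, 4 of 5 genes had negative log2 fold changes. Pdha1 and Pdhb encode the 2 subunits of the E1 component of pyruvate dehydrogenase. Pdha1 stood at 196, 217 and 201 CPM in TRIzol libraries 1 to 3 and at 186, 185 and 195 CPM in AllPrep libraries 1 to 3. Pdhb stood at 139.7, 149 and 138 CPM in TRIzol libraries 1 to 3 and at 123, 119 and 120.0 CPM in AllPrep libraries 1 to 3. Both were lower in every AllPrep library on this scale, but with TMM-scaled CPM Pdha1 overlapped and Pdhb alone of the pair stayed lower, with log2 fold changes of -0.08 (SE 0.07, edgeR adjusted p = 0.51) for Pdha1 and -0.21 (SE 0.07, edgeR adjusted p = 0.11) for Pdhb. Of the other components, Dld, the E3 subunit that several dehydrogenase complexes share, had a log2 fold change of -0.18, and Dlat, the E2 core, one of 0.10. Pcx, pyruvate carboxylase, which in brain is mainly an astrocyte enzyme, had one of -0.03, and its sign turned when TRIzol library 3 or AllPrep library 3 was left out, to 0.06 and 0.05.

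Among the genes listed with the cycle, the cytosolic Mdh1 included, 9 of 12 had negative log2 fold changes, with a median of -0.19. Citrate synthase, encoded by Cs, starts the cycle. Cs stood at 319, 273 and 299 CPM in TRIzol libraries 1 to 3 and at 322, 314 and 309 CPM in AllPrep libraries 1 to 3. The groups overlapped, and the log2 fold change was 0.12 (SE 0.08, edgeR adjusted p = 0.39). NAD-dependent isocitrate dehydrogenase is built from the products of Idh3a, Idh3b and Idh3g, and all 3 were lower without overlap. The values for Idh3g show the largest of these differences. Idh3g stood at 111, 143 and 123 CPM in TRIzol libraries 1 to 3 and at 103, 98.0 and 95.2 CPM in AllPrep libraries 1 to 3. TRIzol library 2 was the highest, no AllPrep value reached a TRIzol value, and the log2 fold change was -0.31 (SE 0.10, edgeR adjusted p = 0.10). The log2 fold changes of its partners were -0.19 for Idh3a, the catalytic subunit, and -0.23 for Idh3b. Idh2, the NADP-dependent mitochondrial enzyme, was much less abundant in counts, at 33.3 ± 2.12 CPM with TRIzol and 33.6 ± 3.21 CPM with AllPrep (SD, n = 3 each), and its log2 fold change of 0.05 turned to -0.02 without AllPrep library 1.

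Ogdh encodes the E1 component of the 2-oxoglutarate dehydrogenase complex, the step after isocitrate dehydrogenase. Ogdh stood at 290.3, 302 and 323 CPM in TRIzol libraries 1 to 3 and at 383, 348 and 317 CPM in AllPrep libraries 1 to 3. On this scale TRIzol library 3 lay just above AllPrep library 3, and the other 2 AllPrep values were above every TRIzol value. The log2 fold change was 0.23 (SE 0.09, edgeR adjusted p = 0.15), the only positive one among the members with an unadjusted edgeR p below 0.05, and did not pass the adjusted test. Dlst, the E2 core of the same complex, had 157 ± 4.98 CPM with TRIzol and 138 ± 8.81 CPM with AllPrep (SD, n = 3 each) and a log2 fold change of -0.15. As a description, since the pair was chosen after these values were seen, the Ogdh to Dlst count ratio was 1.88, 1.95 and 1.98 in TRIzol libraries 1 to 3 and 2.58, 2.58 and 2.41 in AllPrep libraries 1 to 3.

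Succinyl-CoA ligase, fumarase and malate dehydrogenase complete the cycle. Sucla2 and Suclg1, 2 subunits of the ligase, had log2 fold changes of -0.14 and -0.24, and Fh1, fumarase, one of -0.19. Mdh1, the cytosolic malate dehydrogenase of the malate-aspartate shuttle, had the most negative log2 fold change of the members. Mdh1 stood at 909, 956 and 832 CPM in TRIzol libraries 1 to 3 and at 732, 716 and 621 CPM in AllPrep libraries 1 to 3. No AllPrep value reached a TRIzol value, and AllPrep library 3 was the lowest. Its means were 899 ± 62.4 CPM with TRIzol and 689.7 ± 59.7 CPM with AllPrep (SD, n = 3 each), and the log2 fold change was -0.35 (SE 0.09, edgeR adjusted p = 0.074). Mdh2, the mitochondrial enzyme of the cycle, had 282 ± 17.8 CPM with TRIzol and 242 ± 2.86 CPM with AllPrep (SD, n = 3 each), also without overlap, and a log2 fold change of -0.18. Under DESeq2's Wald test, which called 12.9% of all genes, the 3 members Mdh1, Pfkp and Idh3g passed, with adjusted p values of 0.0079, 0.0049 and 0.048, whereas limma-voom called 3.94% of all genes and no member.

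Both pathways were compared as sums. The 16 glycolysis genes took 0.962%, 1.00% and 0.932% of all counts in TRIzol libraries 1 to 3 and 0.890%, 0.886% and 0.896% in AllPrep libraries 1 to 3. The 17 genes of pyruvate entry and the cycle took 0.365%, 0.374% and 0.361% with TRIzol and 0.341%, 0.326% and 0.309% with AllPrep. Both sums were lower in every AllPrep library than in any TRIzol library, and this held after TMM scaling as well. The ratio of the glycolysis sum to the other sum was 2.63, 2.68 and 2.58 in the TRIzol libraries and 2.61, 2.72 and 2.90 in the AllPrep libraries. These ranges overlapped, so a shift between the pathways was not separable from the spread between libraries. Without Gapdh and Mdh1, the most abundant member of each pathway, the mean ratio with AllPrep was 0.997 times that with TRIzol, against 1.04 times with them. Both genes were left out at once, so these values do not separate the part of the cytosolic Mdh1 from that of Gapdh. With each gene weighted equally, the difference in mean log2 CPM, AllPrep minus TRIzol, was -0.06 for glycolysis and -0.12 for the other pathway, and the difference between the pathways again overlapped between the methods.

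**Figure D3:**
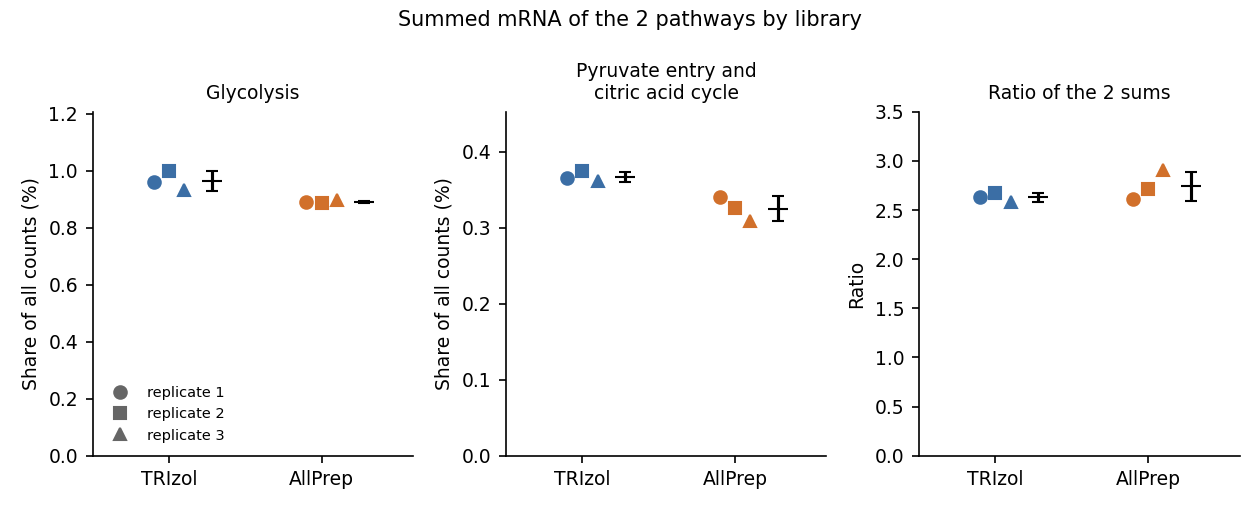
Share of all counts taken by the glycolysis genes (left) and by the genes of pyruvate entry and the citric acid cycle (middle) in each library, and the ratio of the 2 sums (right); bars are mean ± SD of 3 libraries. Both sums are lower in all 3 AllPrep libraries, while the ratios overlap (2.58 to 2.68 with TRIzol, 2.61 to 2.90 with AllPrep).

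A ratio of 2 genes within a library does not depend on library size, but it needs reads that can be told apart. Eno1 and Eno2 were alike at 75.1% of aligned coding bases, with no identical run longer than 20 bases, and every read-length window of 150 coding bases held at least 23 mismatches. Ldha and Ldhb were alike at 71.5%, with no identical run longer than 18 bases and at least 29 mismatches in such a window. The 60 coding bases in which each pair is most alike are printed here because even they differ at several positions. Capitals mark the positions that differ within the pair, 5 for enolase and 7 for lactate dehydrogenase, and the sequences come from GENCODE transcripts on build GRCm38, 5′ to 3′ along the mRNA.
Eno1: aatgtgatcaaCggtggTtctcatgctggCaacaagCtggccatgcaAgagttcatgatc
Eno2: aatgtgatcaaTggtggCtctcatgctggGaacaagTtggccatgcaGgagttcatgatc
Ldha: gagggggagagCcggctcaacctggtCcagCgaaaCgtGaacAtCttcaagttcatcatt
Ldhb: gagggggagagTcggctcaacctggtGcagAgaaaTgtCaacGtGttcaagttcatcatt
They lie in coding exons, at chr4:150245121-150245180 on the plus strand, exon 7 for Eno1, at chr6:124766262-124766321 on the minus strand, exon 7 for Eno2, at chr7:46850237-46850296 on the plus strand, exon 4 for Ldha and at chr6:142498560-142498619 on the minus strand, exon 4 for Ldhb, with exons counted along the transcript with the longest coding sequence.

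Eno1 had about as many counts as Eno2 in each TRIzol library and fewer in each AllPrep library. The Eno1 to Eno2 ratio was 1.03, 1.02 and 1.02 in TRIzol libraries 1 to 3 and 0.884, 0.898 and 0.988 in AllPrep libraries 1 to 3. The TRIzol values were close together, the AllPrep values were all lower, and AllPrep library 3 was the nearest to them. The mean ratio was 1.02 ± 0.00470 with TRIzol and 0.923 ± 0.0563 with AllPrep (SD, n = 3 each), with an exact permutation p of 0.1 and 0.25 after adjustment over the 10 ratios compared. Since 3 against 3 libraries cannot give less than 0.1, no ratio could pass 0.05. Per kilobase of transcript, Eno1 CPM was 420.2 ± 15.9 with TRIzol and 389.7 ± 9.51 with AllPrep, and Eno2 CPM was 298 ± 12.5 with TRIzol and 307 ± 11.0 with AllPrep.

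The Ldha to Ldhb ratio was 0.414, 0.355 and 0.301 in TRIzol libraries 1 to 3 and 0.389, 0.413 and 0.630 in AllPrep libraries 1 to 3. The methods overlapped, and AllPrep library 3 stood well above the other 5. The log2 difference of 0.40 between the means was 0.18 without that library, and the exact permutation p with all libraries was 0.3. Per kilobase of transcript, Ldhb CPM was 421 ± 33.6 with TRIzol and 329.6 ± 49.7 with AllPrep, and Ldha CPM was 108 ± 16.2 with TRIzol and 110.0 ± 13.3 with AllPrep, so Ldhb was the more abundant transcript in both groups.

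Of the 10 isozyme and subunit ratios, 4 did not overlap between the methods. The CPM of single genes did not overlap for 34.0% of all genes, and the share over gene pairs was not determined. The widest gaps relative to the spread were in the Pfkl to Pfkp ratio and the Pdha1 to Pdhb ratio. The Pfkl to Pfkp ratio was 0.638, 0.599 and 0.617 in TRIzol libraries 1 to 3 and 0.746, 0.726 and 0.881 in AllPrep libraries 1 to 3. The Pdha1 to Pdhb ratio was 1.40, 1.46 and 1.46 in TRIzol libraries 1 to 3 and 1.52, 1.56 and 1.63 in AllPrep libraries 1 to 3. Both were higher in every AllPrep library. The Mdh1 to Mdh2 ratio was lower in every AllPrep library, with means of 3.19 ± 0.173 with TRIzol and 2.84 ± 0.215 with AllPrep (SD, n = 3 each). For each of these 3 the exact permutation p was 0.1, or 0.25 adjusted over the 10 ratios. The Hk1 to Hk2 ratio, 124, 97.9 and 72.9 in TRIzol libraries 1 to 3 and 105, 76.8 and 86.5 in AllPrep libraries 1 to 3, varied widely within each method, and overlapped, as did the Pfkm to Pfkp, Idh3a to Idh3b, Idh3a to Idh3g and Sucla2 to Suclg1 ratios. The last 3 compare subunits of one enzyme, and their log2 differences were 0.04, 0.11 and 0.11. Pdha1 to Pdhb also compares subunits of one enzyme, with a log2 difference of 0.12 and no overlap.

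**Figure D4:**
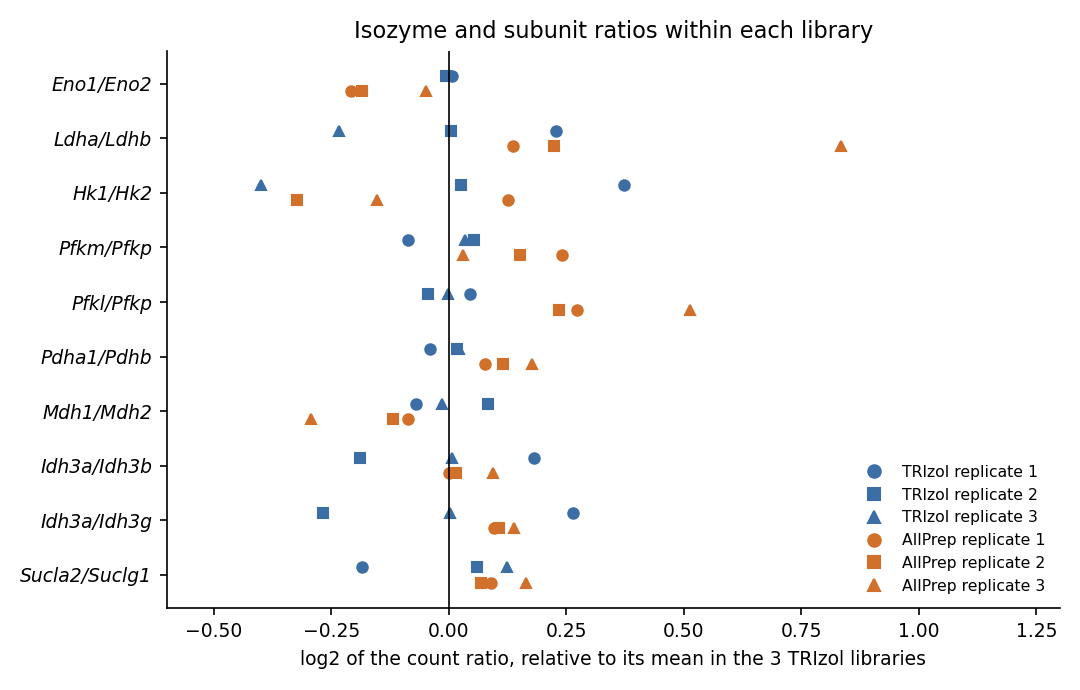
Count ratio of 10 isozyme or subunit pairs in each library, as log2 relative to the mean of the 3 TRIzol libraries; blue marks are TRIzol and orange marks AllPrep, with 1 shape per replicate number. Orange and blue do not overlap for Eno1/Eno2, Pfkl/Pfkp, Pdha1/Pdhb and Mdh1/Mdh2, and the Ldha/Ldhb ratio of AllPrep library 3 lies apart from all others.

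Some members share sequence with other annotated genes, and how reads that fit several genes were counted is not given in the sources used here. For Gapdh, 81.5% of the 150-base windows of its mRNA occur exactly in 1 or more of 49 other annotated genes, of which 37 are in the count table. The shares were 66.1% for Pgk1, 49.0% for Eno1, 37.9% for Pgam1, 15.0% for Pfkp, 10.3% for Pdha1, 2.89% for Pkm and 2.05% for Pdhb, and 25 members shared no such window. The levels of these 8 genes, and of Gapdh, Pgk1, Eno1 and Pgam1 most of all, are uncertain on this account. So are the Eno1 to Eno2 ratio and, at smaller shares of windows, the ratios that include Pfkp, Pdha1 or Pdhb. Eno1b, whose coding sequence matches that of Eno1 at 99.4% of bases with an identical run of 725 bases, had at most 3 counts in any library.

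Positive differences were more frequent among the members with long transcripts. The length classes serve as description only, and shares by class over all genes were not determined. Of 7 members with a coding transcript of at least 3500 bases, 5 had a positive log2 fold change, with a median of 0.10. Of 13 members of 2000 bases or more but under 3500, 2 were positive, with a median of -0.14, and of 13 members under 2000 bases, 2 were positive, with a median of -0.18. Hk1, Hk2, Pfkl, Dlat and Ogdh were the long transcripts with positive values, and Pfkp and Pcx those with negative ones. Spearman's rho between log2 fold change and coding transcript length was 0.55 across the 33 members. Taking the longest annotated transcript of each gene instead, rho was 0.42 across the members and 0.31 across 16219 tested genes. For GC content rho was 0.45 across members and 0.01 across all genes. Genes of one set of libraries are not independent replicates, and no p is given. With smooth trends on length and GC removed for each library, the median of the members was -0.07 and 23 of 33 stayed negative. Under that setting Pfkp passed, with a log2 fold change of -0.52 and an edgeR adjusted p of 0.034, against 1.65% of all genes. The correction used the longest annotated transcript. For 13 of 33 members, Gapdh, Pdhb and Idh3g among them, this is not the transcript with the longest coding sequence. For Pfkp the longest was an 8681-base transcript with a retained intron, whereas the one with the longest coding sequence has 4145 bases.

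**Figure D5:**
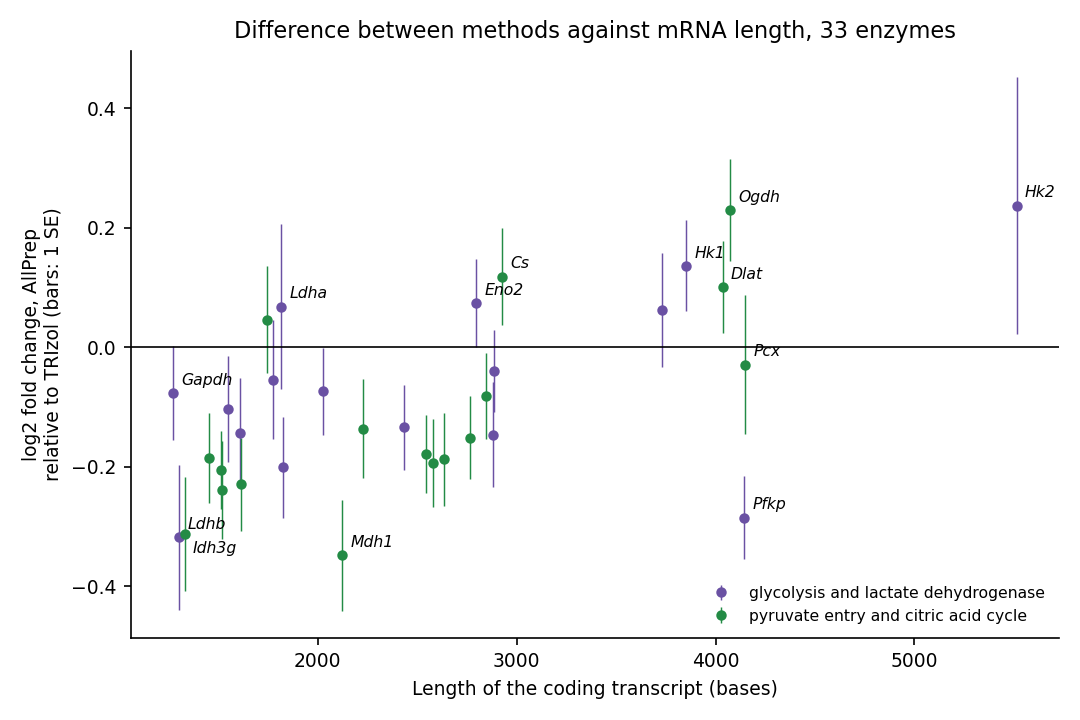
Log2 fold change (AllPrep relative to TRIzol, bars of 1 SE) against the length of the coding transcript for the 33 members, purple for glycolysis with lactate dehydrogenase and green for pyruvate entry and the citric acid cycle. Of the 7 transcripts of at least 3500 bases 5 lie above 0, against 4 of the 26 shorter ones.

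The other genes around these pathways were taken from 7 lists of isozymes, regulators, transporters and connected steps. Of 76 listed genes, 69 could be tested, 1 rose, 1 fell and 67 did not pass, beside 2.52% of all genes that rose and 1.28% that fell. Their median log2 fold change was -0.07. Neither call held when any one library was left out, although each kept its sign. The gene that rose was Slc16a8, a lactate transporter of retinal pigment epithelium and choroid plexus. Slc16a8 stood at 0.714, 0.675 and 0.533 CPM in TRIzol libraries 1 to 3 and at 1.41, 1.87 and 2.02 CPM in AllPrep libraries 1 to 3. Each AllPrep value was above each TRIzol value, with a log2 fold change of 1.50 (SE 0.26, edgeR adjusted p = 0.033), and the choroid plexus markers described above moved with it in the same libraries. The part of those cells in it was not tested.

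The gene that fell acts on the control of glycolysis. Pfkfb2 makes and removes fructose 2,6-bisphosphate, an activator of phosphofructokinase. Pfkfb2 stood at 32.1, 34.0 and 32.0 CPM in TRIzol libraries 1 to 3 and at 24.8, 22.3 and 23.9 CPM in AllPrep libraries 1 to 3. The groups did not overlap, and the log2 fold change was -0.43 (SE 0.08, edgeR adjusted p = 0.033). By list, 1 of 6 tested regulators fell and 1 of 9 transport genes rose. No gene passed among 13 isozyme and side-step genes, 10 for the pyruvate carrier and dehydrogenase control, 10 further citric acid cycle enzymes, 14 of the malate-aspartate shuttle and anaplerosis, and 7 of the pentose phosphate pathway.

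The gene with the most counts in each of these lists did not pass. Log2 fold changes were -0.23 for Aldoc, the brain aldolase found mainly in astrocytes and Purkinje cells, -0.08 for Pfkfb3, a strong maker of fructose 2,6-bisphosphate, and -0.0028 for Bsg, the chaperone of lactate transporters. They were -0.25 for Pdp1, a phosphatase that activates pyruvate dehydrogenase, -0.09 for Sdha, the flavoprotein of succinate dehydrogenase, -0.14 for Got1, the cytosolic aspartate aminotransferase, and -0.02 for Tkt, transketolase. Their edgeR adjusted p ran from 0.15 for Aldoc to 0.99 for Bsg.

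For scale, a list of 12 nuclear genes of oxidative phosphorylation, the mitochondrial process that the citric acid cycle feeds, had 12 negative log2 fold changes, a median of -0.20 and 1 gene that fell. Over all genes, 51.5% of values were negative and 1.28% of genes fell. The 17 members on the citric acid cycle side had 13 negative values and a median of -0.18, and the 16 glycolysis members 11 negative values and a median of -0.07. With length and GC trends removed, the medians were -0.11, -0.10 and -0.028 in the same order. No difference between these lists was tested.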

How the data were processed

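RNA libraries of wild-type mouse brain were analysed, 3 extracted with TRIzol and 3 with the AllPrep kit, grouped by their titles. The authors deposited raw read counts per gene, whole numbers with no normalization. Per the submitters' processing notes, reads were handled with STAR 2.7.9a, featureCounts, cutadapt, FastQC 0.11.9 and, downstream, limma 3.60.6, on build GRCm39. For strand and for reads that map to several places, the settings were not given in sources used here. Of 22692 rows, 108 repeats of an Ensembl ID with identical counts were dropped. Counts from 1 to 20 were even in 64.2% to 70.9% of cases, which is why halved counts were tried.

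CPM used the column totals of 36395330 to 50937858 counts. All genes were fitted with edgeR 4.0.16 in R 4.3.3 with a two-sided quasi-likelihood F-test after TMM scaling and the filterByExpr filter, with no replicate block, and adjusted over 16325 genes. Each SE was obtained as the absolute log2 fold change over the root of the F statistic. Intervals (95%) came from limma 3.58.1 with voom. Count ratios were set against each other with a two-sided exact permutation test, adjusted over 10 ratios. The edgeR step was tested on simulated data. No libraries of one method agreed within sampling noise (chi-square over its degrees of freedom was 14.3 or more), so none was treated as a library deposited more than once.

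Members and lists were chosen with earlier results of these data known. Of 174 list entries, 172 matched by symbol; 1 further gene is not reported here. All members are named. Values in every library were given for the 3 most abundant and the 2 with the smallest p in each pathway, for genes of 3 isozyme ratios and of the 2 ratios with the widest separation, and, in the other lists, for genes past the threshold, with the most abundant gene named. Transcripts, lengths and GC came from GENCODE vM21 on GRCm38, another build than that of the counts, so coordinates are given only for printed sequences. Alternatives were the Wald test or only the size factors of DESeq2 1.42.0, no TMM factor, limma-voom, other filters and thresholds, halved counts, a replicate block, length and GC trends removed (mgcv 1.9.3), and each library left out.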

Additional observations from a re-analysis of the deposited data

How the results depend on the processing

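The count of genes past the threshold, 621, was 1 at an adjusted p below 0.01, 2021 at an adjusted p below 0.1, 2101 with DESeq2's Wald test, 269 with length and GC trends removed, and 2 to 205 with 1 library left out, below 621 for each of the 6 libraries and lowest without TRIzol library 2. The count of members past the threshold, 0, was 2 at an adjusted p below 0.1 (Pfkp and Mdh1), 1 with library size alone (Pfkp), 3 with DESeq2's Wald test, 1 with length and GC trends removed (Pfkp), and 0 with any library left out. The median log2 fold change of glycolysis members, -0.07, was -0.028 with length and GC trends removed and -0.10 to -0.05 with 1 library left out. The median of the 17 other members, -0.18, was -0.21 with library size alone, -0.10 with length and GC trends removed, and -0.18 to -0.14 with 1 library left out, the highest without TRIzol library 1. The glycolysis to citric acid cycle ratio with AllPrep over that with TRIzol, 1.04, was 0.997 without Gapdh and Mdh1. The cause of these shifts was not tested.

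Of the 33 members, 28 kept the sign of their log2 fold change in all 15 alternatives, and 23 to 25 members were negative in each. The sign turned for Pgam1 with length and GC trends removed (0.018). With 1 library left out, values ran from -0.042 to 0.126 for Pfkl, from -0.121 to 0.0557 for Pgam1, from -0.0486 to 0.165 for Ldha, from -0.12 to 0.0625 for Pcx and from -0.0171 to 0.0909 for Idh2. Among log2 ratios they ran from -0.317 to 0.069 for Hk1/Hk2, from -0.0576 to 0.127 for Idh3a/Idh3b and from -0.0193 to 0.246 for Idh3a/Idh3g. Leaving out 1 library ended the calls of Pfkfb2 and Slc16a8 each time.

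Whether the replicate numbers pair the libraries cannot be settled with 3 libraries per method, and no label tells what the number marks. Deviations of libraries with the same number correlated at -0.05, 0.006 and 0.16. Not every library correlated best with its own number, although both libraries numbered 3 did. With the replicate number as a block 236 genes passed, 0 of them members, and Pfkfb2 and Slc16a8 no longer passed. With differences taken within numbers, the exact sign-flip test on ratios cannot give less than 0.25.

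Precision is limited by the 3 libraries per method.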

Other observations

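Genes for the mitochondrial pyruvate carrier and for the kinases that inactivate pyruvate dehydrogenase were singled out once their values were known. Mpc1 stood at 22.4, 20.6 and 23.2 CPM in TRIzol libraries 1 to 3 and at 16.8, 18.3 and 15.4 CPM in AllPrep libraries 1 to 3. Mpc2 stood at 67.6, 56.2 and 62.7 CPM in TRIzol libraries 1 to 3 and at 41.7, 49.5 and 48.3 CPM in AllPrep libraries 1 to 3. Mpc1 and Mpc2, the 2 subunits of the mitochondrial pyruvate carrier, were both lower in every AllPrep library, with log2 fold changes of -0.35 (SE 0.10, edgeR adjusted p = 0.083) and -0.38 (SE 0.11, edgeR adjusted p = 0.079). Of the 4 kinase genes, Pdk2 and Pdk3 were higher in every AllPrep library, with log2 fold changes of 0.25 (SE 0.08, edgeR adjusted p = 0.10) and 0.35 (SE 0.13, edgeR adjusted p = 0.15). Pdk1 and Pdk4 overlapped between the methods, with log2 fold changes of -0.05 (SE 0.10, edgeR adjusted p = 0.78) and 0.19 (SE 0.10, edgeR adjusted p = 0.27). None of these 6 genes passed the test. On the same CPM scale 20.6% of all genes were lower and 13.4% were higher without overlap. Whether these genes overlap with TMM-scaled CPM was not determined. Over the whole list of 10 genes for the carrier and for control of the dehydrogenase, 5 values were positive and 5 negative, and the median was -0.01.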
